A study of Mus musculus with 6 samples.

Results

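The metalloproteinases and their inhibitors described here are the matrix metalloproteinases (MMPs), the ADAM and ADAMTS proteases, the ADAMTS-like proteins and the tissue inhibitors of metalloproteinases (TIMPs). They were chosen by name among the genes counted, so a gene absent from the counts is not included. Each is protein-coding in the GENCODE M21 annotation, with a symbol starting with Mmp, Adam, Adamts, Adamtsl or Timp followed by a digit. The rule found 83 of the 43346 genes counted, comprising 22 Mmp, 33 Adam, 19 Adamts, 5 Adamtsl and 4 Timp genes, and it used no measured value. Transcripts were counted by RNA sequencing in primary embryonic fibroblasts of C57BL/6 mice (MEFs), unmodified cells grown in culture, at passage 9. Cells received 3 µM erastin for 24 h, or DMSO in its place, and each treatment is represented by 3 libraries. Erastin is a small molecule that blocks cystine uptake through the system xc- antiporter and is used to induce ferroptosis, in which iron-dependent peroxidation of membrane lipids kills the cell. The labels give no separate culture or embryo for each library, so p-values measure the spread between these libraries, which may be technical.

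MMPs are zinc proteases that cut collagens and other matrix proteins. Most are secreted as inactive precursors, and some stay anchored in the membrane, where they cut matrix and activate other MMPs. Catalytic ADAMs sit in the cell membrane and cut the outer parts off growth factors, receptors and adhesion molecules, while some ADAMs have lost catalytic activity. ADAMTS proteases are secreted, bind the matrix and cut proteoglycans or trim procollagens, and ADAMTS-like proteins share their binding modules but lack the protease. TIMPs occupy the active site of these enzymes, and TIMP-3 is the one held in the matrix and the one with the broadest reach over ADAMs and ADAMTS proteases. Fibroblasts are a main source of many of these proteins in connective tissue.

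Libraries held 13333911 to 20509970 counted reads, and the 83 genes took 0.926% to 1.002% of them. Pairs of libraries within a group differed by a chi-square per degree of freedom of 11.0 to 19.2 and pairs across groups by 78.0 to 123, so every library was kept as its own replicate. The labelled cell type was checked against marker genes. Summed fibroblast markers stood at 30931 to 32153 CPM (reads scaled to library size with TMM factors) in DMSO and at 18519 to 20673 CPM with erastin, and 9 of the 10 were lower with erastin (edgeR, adjusted p under 0.05), with Dcn as the exception. Summed markers of 6 other cell types stayed between 1.82 and 167.2 CPM, and the endothelial genes Pecam1 and Cdh5 and the epithelial genes Epcam, Krt5 and Krt14 were each under 1 CPM in every library. Epithelial Krt18 was above that, at 1.25 to 2.49 CPM over the 6 libraries, and did not pass the test (log2 -0.17). Other genes of these lists did change. Endothelial Tek and Kdr were higher with erastin (log2 1.45 and 1.38), and the endothelial sum was 5.09 to 7.71 CPM in DMSO and 14.1 to 17.4 CPM with erastin. Of the chondrocyte and osteoblast genes Sox9 was higher (log2 2.07) and Col2a1 lower, of the muscle genes Des was higher and Acta1 lower, and of the neural genes Tubb3 was lower. In such bulk samples, fewer cells of a type and less RNA per cell cannot be told apart. The part of these marker changes in the results below was not tested.

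Most metalloproteinase transcripts that differed after erastin were lower, while the 3 abundant TIMPs did not pass the test. Of the 83 genes, 44 had enough reads to be tested. With erastin 17 of these 44 were lower and 4 higher (edgeR quasi-likelihood test, Benjamini-Hochberg adjusted p under 0.05 over 14000 genes), which makes 21 called, or 47.7%. Of all 14000 genes, 43.1% were called, 21.6% as higher and 21.5% as lower, so the share called is near that background while the split by direction is 17 to 4. The median log2 fold change (erastin minus DMSO) was -0.25 over the 44 and -0.001 over all genes tested. All 3 erastin libraries lay on the same side of all 3 DMSO libraries for 25 of the 44, where 52.5% of all genes did. An absolute log2 change of at least 1 together with a call was reached by 6 of the 44, against 12.2% of all genes. By family, 7 of 12 tested Mmp genes were called (2 higher, 5 lower), 4 of 11 Adam (2 and 2), 7 of 12 Adamts (all lower), 3 of 5 Adamtsl (all lower) and 0 of 4 Timp genes. Medians were -0.49 for Mmp, -0.16 for Adam, -0.53 for Adamts, -0.85 for Adamtsl and 0.095 for Timp genes. The set was chosen with earlier results of these data known, so these counts and medians beside the background are a description only.

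**Figure D1:**
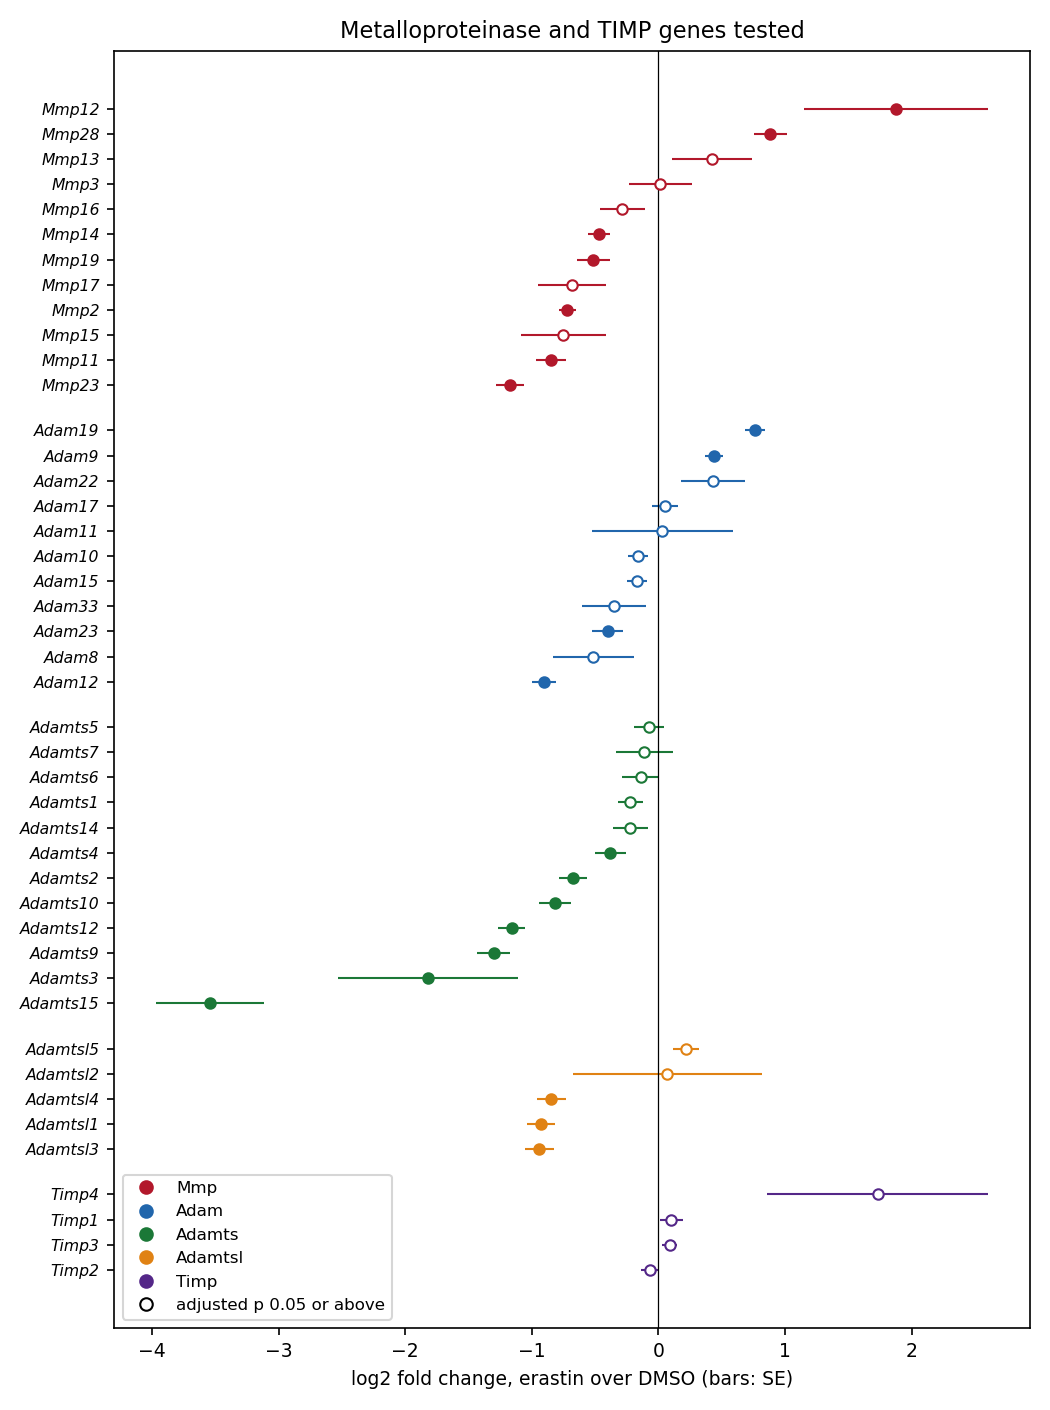
Log2 fold change (erastin minus DMSO, x axis) of each of the 44 tested genes by family, with its SE as a bar, from 3 DMSO and 3 erastin libraries. The 17 genes called lower lie left of 0, from -0.38 for Adamts4 to -3.54 for Adamts15, and the 4 called higher are Adam9, Adam19, Mmp28 and Mmp12. Open points did not pass the test.

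The MMPs of highest level fell. Mmp2, a gelatinase that cuts denatured collagen and basement membrane (ENSMUSG00000031740.7, chr8:92827291-92853420, plus strand, GRCm38), stood at 574, 592 and 615 CPM in DMSO replicates 1 to 3 and at 356.5, 358 and 367 CPM with erastin. The groups were far apart beside a spread of 20.8 and 5.91 CPM (SD, n = 3 each), and the log2 change was -0.72 (SE 0.0653, edgeR adjusted p = 5.95e-07). Mmp14, the membrane-type MMP that activates pro-MMP-2 at the cell surface (chr14:54431612-54445364, plus strand), stood at 455.5, 503 and 596 CPM in DMSO and at 362, 361 and 400.1 CPM with erastin. All erastin libraries were below all DMSO libraries, with DMSO replicate 3 the highest, and the log2 change was -0.47 (SE 0.0906, edgeR adjusted p = 6.99e-04). The inhibitor of this pair of enzymes that also takes part in the activation, Timp2, is given with the other TIMPs below.

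Among the other MMPs, Mmp23, a short membrane-anchored member cut loose during secretion (chr4:155650655-155653384, minus strand), showed the deepest fall. It stood at 72.9, 71.7 and 74.0 CPM in DMSO and at 26.7, 36.5 and 34.0 CPM with erastin, 2.25-fold lower (log2 -1.17, SE 0.112, edgeR adjusted p = 1.10e-06). Mmp11, stromelysin of the tumour stroma, which furin activates inside the cell, stood at 62.8, 77.8 and 89.0 CPM in DMSO and at 39.8, 43.0 and 44.6 CPM with erastin, a log2 change of -0.85 (SE 0.117). Mmp19, which cuts basement membrane proteins, stood at 37.6, 36.1 and 32.3 CPM in DMSO and at 22.1, 23.0 and 29.1 CPM with erastin, a log2 change of -0.51 (SE 0.132). Neither gene's groups overlapped, and edgeR's adjusted p was 3.64e-05 for Mmp11 and 5.53e-03 for Mmp19. The exons of Mmp19 overlap Tmem198b on the opposite strand over 22.3% of their length, and those of Mmp11 overlap Chchd10 over 5.6%. The strand setting of the counting is not given in the sources used here, so reads of such partners cannot be told apart.

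Mmp28, or epilysin, a secreted MMP also activated by furin (chr11:83440768-83463071, minus strand), moved the other way. It stood at 19.6, 18.1 and 21 CPM in DMSO and at 35.5, 31.8 and 40.9 CPM with erastin. Each erastin library was above each DMSO library, and the gene was 1.84-fold higher (log2 0.88, SE 0.131, edgeR adjusted p = 7.17e-05). Mmp11 and Mmp28, both secreted as furin-cut enzymes, thus changed in opposite directions. Exons of Mmp28 overlap 1700020L24Rik on the opposite strand over 12.0% of their length, a gene with 13 reads over all libraries.

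Mmp12, the macrophage elastase, was called higher at a level of few reads. It stood at 0.529, 0.998 and 0.0778 CPM in DMSO and at 2.47, 2.93 and 0.778 CPM with erastin. The groups overlapped, since erastin replicate 3 lay below DMSO replicate 2, and the log2 change of 1.87 had an SE of 0.726 (edgeR adjusted p = 0.0477). The call was lost without DMSO replicate 1 or 3 (adjusted p = 0.119 for each), without erastin replicate 1 (0.158) or 2 (0.176), and with upper-quartile factors (0.0532). Without DMSO replicate 2 it was kept, at a log2 change of 2.72 (0.0324). Summed macrophage and leukocyte markers were 37.1, 47.7 and 26.5 CPM in DMSO and 60.2, 63.6 and 30.9 CPM with erastin, high and low in the same libraries as Mmp12 within each group. Lyz2 was the largest part of the sum, at 19.2, 26.6 and 11.2 CPM in DMSO and 37.4, 39.2 and 17.6 CPM with erastin. Log2 differences were above 0 for Cd68 (1.06), Lyz2 (0.71), Tyrobp (0.67) and Cd14 (0.15). They were below 0 for Adgre1 (-0.05), Csf1r (-0.06), Ptprc (-0.34) and Itgam (-0.85). None of those 8 markers passed the edgeR test (0 of 8, with 2 at an unadjusted p under 0.05 and 1 called by DESeq2), and their part in the Mmp12 values was not tested.

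The remaining tested MMPs did not pass. Mmp13, the main interstitial collagenase of the mouse, had a log2 difference of 0.42 (95% interval -0.25 to 1.09), and Mmp3, a stromelysin, of 0.01 (-0.52 to 0.55). Their levels overlapped between the groups, at 2.57 to 5.10 CPM in DMSO and 4.93 to 6.38 CPM with erastin for Mmp13, and at 4.91 to 8.10 and 6.48 to 6.98 CPM for Mmp3. The other membrane-type genes Mmp15, Mmp16 and Mmp17 had log2 differences of -0.75, -0.29 and -0.68 with edgeR adjusted p of 0.0885, 0.218 and 0.0518. Mmp15 passed without DMSO replicate 1 (adjusted p = 0.00942), and without DMSO replicate 3 Mmp16 (0.0282) and Mmp17 (0.0202) passed. Mmp17 also passed with upper-quartile factors (0.0372) and in DESeq2 (0.0449). None of Mmp15, Mmp16 and Mmp17 passed in any other alternative fit.

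**Figure D2:**
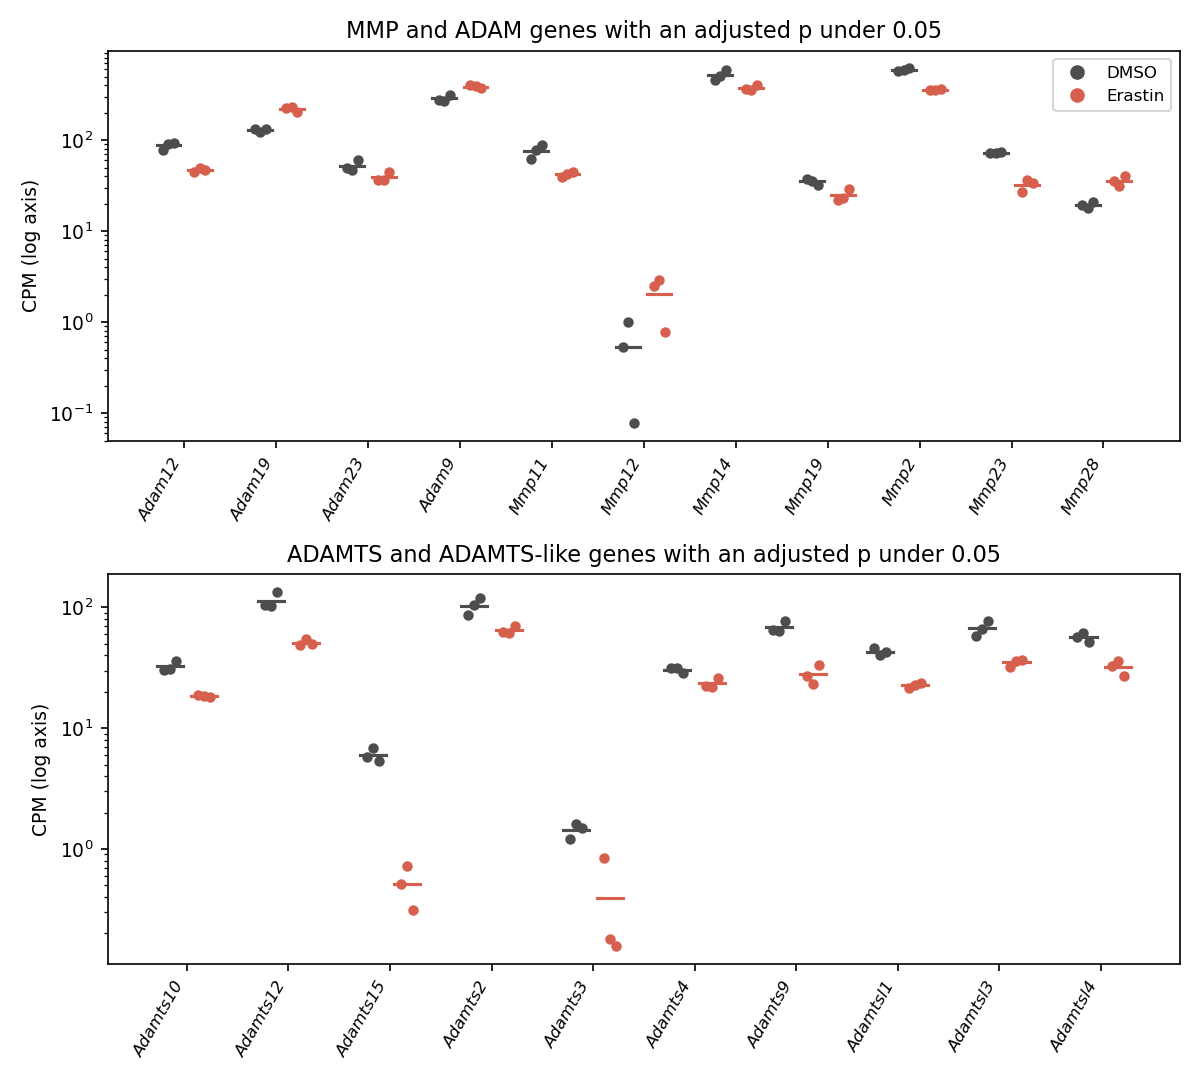
CPM (log axis) in each of the 6 libraries for the 21 genes called, with DMSO and erastin libraries as separate points and the group mean as a line. In all but Mmp12 the erastin points do not overlap the DMSO points, as for Mmp2 at 356.5 to 367 against 574 to 615 CPM.

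Sheddase ADAMs did not move together. Adam9 (ENSMUSG00000031555.9, chr8:24949611-25016927, minus strand), a widely made ADAM that can shed growth factors and adhesion proteins, stood at 280.2, 271 and 312 CPM in DMSO and at 400.3, 391 and 379 CPM with erastin. It rose in every erastin library over every DMSO library, by a log2 change of 0.44 (SE 0.0733, edgeR adjusted p = 2.10e-04). Adam19 (chr11:46055992-46147343, plus strand), known as meltrin beta and for cutting neuregulin, stood at 133, 123 and 133 CPM in DMSO and at 227, 229.6 and 203 CPM with erastin, 1.69-fold higher (log2 0.76, SE 0.0782, adjusted p = 2.07e-06 by edgeR). Adam12 (chr7:133883199-134232146, minus strand), or meltrin alpha, a sheddase of mesenchymal cells, stood at 78.7, 91.1 and 93.4 CPM in DMSO and at 45.1, 49.1 and 46.6 CPM with erastin. It was 1.87-fold lower with no overlap (log2 -0.90, SE 0.0935, edgeR adjusted p = 2.22e-06), so the pair of meltrins changed in opposite directions.

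The best studied sheddases did not pass the test. Adam10, which cuts Notch and cadherins, stood at 152.5 to 158 CPM in DMSO and 129.5 to 148.5 CPM with erastin, a log2 difference of -0.16 (95% interval -0.33 to 0.00) that did not pass (edgeR adjusted p = 0.104). Adam17, which releases tumour necrosis factor and ligands of the epidermal growth factor receptor, had a log2 difference of 0.05 (95% interval -0.17 to 0.27, edgeR adjusted p = 0.727). Its libraries overlapped, at 62.8 to 70.6 CPM in DMSO and 62.5 to 80.1 CPM with erastin. Adam15 (log2 -0.17), Adam33 (-0.35) and Adam8 (-0.51) did not pass either. Adam10 and Adam15 passed with upper-quartile factors, at adjusted p of 0.0346 and 0.0387.

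Of the catalytically inactive ADAMs, which act as binding partners at neuronal membranes, Adam23 was lower. It stood at 49.0, 47.1 and 61.0 CPM in DMSO and at 36.8, 37.0 and 45.0 CPM with erastin, a log2 change of -0.40 (SE 0.121, edgeR adjusted p = 0.0151). The groups did not overlap, but the call was lost without DMSO replicate 3 (adjusted p = 0.0726), erastin replicate 1 (0.0786) or erastin replicate 2 (0.0597). Adam22 (log2 0.43) and Adam11 (0.03) did not pass.

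Every ADAMTS gene called was lower. Adamts15 (ENSMUSG00000033453.7, chr9:30899155-30922452, minus strand), a protease that cuts aggrecan and versican, had the largest fall of the 44 genes. It stood at 5.74, 6.87 and 5.37 CPM in DMSO and at 0.512, 0.718 and 0.311 CPM with erastin, 11.6-fold lower (log2 -3.54, SE 0.426, edgeR adjusted p = 9.87e-06). The erastin values rest on 11, 12 and 6 reads. Adamts9 (chr6:92772699-92943492, minus strand), which also cuts versican, stood at 65.3, 64.3 and 77.3 CPM in DMSO and at 27.0, 23.2 and 33.6 CPM with erastin, a log2 change of -1.30 (SE 0.129, edgeR adjusted p = 1.54e-06). Adamts12 (chr15:11064790-11349231, plus strand), which cuts cartilage oligomeric matrix protein, stood at 105.3, 102.0 and 135 CPM in DMSO and at 49.1, 54.4 and 49.9 CPM with erastin. Its log2 change was -1.16 (SE 0.107, edgeR adjusted p = 7.92e-07), and for Adamts9 and Adamts12 alike the lowest DMSO library was well above the highest erastin library. Exons of Adamts9 overlap A730049H05Rik on the opposite strand over 9.2% of their length.

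The procollagen N-proteinases, which trim the ends of fibrillar procollagens, were represented by Adamts2, Adamts3 and Adamts14. Adamts2 stood at 86.7, 104.8 and 118.5 CPM in DMSO and at 62.3, 61.7 and 70.3 CPM with erastin, a log2 change of -0.67 (SE 0.109, edgeR adjusted p = 1.58e-04). Adamts3 was far lower in level, at 1.21, 1.61 and 1.48 CPM in DMSO and 0.838, 0.180 and 0.156 CPM with erastin, with a log2 change of -1.82 (SE 0.71, edgeR adjusted p = 0.0490). Neither gene's groups overlapped. The Adamts3 call was lost in 7 of 13 alternatives, among them the fits without DMSO replicate 1 (adjusted p = 0.0886), 2 (0.138) or 3 (0.0859) and without erastin replicate 2 (0.167) or 3 (0.155). Without erastin replicate 1, the highest of its group, the call was kept and the log2 change was -3.04 (0.0157). The change was -1.50 without erastin replicate 2 and -1.44 without erastin replicate 3. The size of the fall thus depended on the library left out, and the erastin values rest on 18, 3 and 3 reads. Adamts14 did not pass (log2 -0.22).

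Adamts10, which binds fibrillin microfibrils, stood at 30.6, 31.0 and 36.3 CPM in DMSO and at 18.9, 18.6 and 18.0 CPM with erastin, a log2 change of -0.82 (SE 0.125, edgeR adjusted p = 9.53e-05). Its relative Adamts6 did not pass (log2 -0.14), nor did Adamts7 (-0.11), the relative of Adamts12. Adamts4, an aggrecanase, stood at 31.4, 31.4 and 28.9 CPM in DMSO and at 22.5, 22.0 and 26.0 CPM with erastin, a log2 change of -0.38 (SE 0.123, edgeR adjusted p = 0.0214). The groups did not overlap, but the call was lost without DMSO replicate 1 (0.0603) or 2 (0.0731), without erastin replicate 1 (0.0846) or 2 (0.0776), with library totals alone (0.0585) and without the filter on low counts (0.051).

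The most counted ADAMTS genes, the aggrecanases Adamts5 and Adamts1, did not pass. Adamts5 stood at 464, 423 and 422 CPM in DMSO and at 373, 347 and 521 CPM with erastin, and Adamts1 at 338, 332 and 376 CPM in DMSO and 262, 281 and 353 CPM with erastin. These neighbours on chromosome 16, on the same strand and 53059 bases apart, were both highest among the erastin libraries in replicate 3. Without it, Adamts5 had a log2 change of -0.27 (edgeR adjusted p = 0.0115) and Adamts1 of -0.36 (0.00305), against -0.08 (0.638) and -0.22 (0.0841) with all 6 libraries. Leaving out erastin replicate 1 gave -0.0087 (0.97) for Adamts5 and -0.137 (0.353) for Adamts1. Leaving out erastin replicate 2 gave 0.0355 (0.843) and -0.181 (0.231).

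Among ADAMTS-like genes, 3 fell by similar amounts. Adamtsl1 stood at 45.9, 40.3 and 43.0 CPM in DMSO and at 21.5, 22.7 and 23.7 CPM with erastin (log2 -0.93, SE 0.111). Adamtsl3 stood at 58.5, 66.3 and 77.8 CPM in DMSO and at 32.4, 36.1 and 37.0 CPM with erastin (log2 -0.94, SE 0.113). Adamtsl4, which binds fibrillin and is needed in the fibres that hold the lens, stood at 57.4, 61.8 and 52.1 CPM in DMSO and at 32.6, 35.8 and 27.1 CPM with erastin (log2 -0.85, SE 0.117). No erastin library of these genes reached a DMSO library, and edgeR's adjusted p was 9.84e-06, 9.77e-06 and 3.91e-05. Adamtsl5 differed in the other direction without passing (log2 0.22, edgeR adjusted p = 0.0945), though it passed with library totals alone (0.0305), and Adamtsl2 (log2 0.07) was close to the detection limit.

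None of the 4 TIMPs passed the test (edgeR, 0 of 4, with 0 at an unadjusted p under 0.05 and 0 called by DESeq2). Timp3 (chr10:86300372-86349506, plus strand), the matrix-bound inhibitor, stood at 4255, 4002 and 3938 CPM in DMSO and at 4414, 4196 and 4347 CPM with erastin. Timp2 (chr11:118301069-118355740, minus strand) stood at 1466, 1563 and 1468 CPM in DMSO and at 1511, 1425 and 1349 CPM with erastin. Timp1 (chrX:20870166-20874735, plus strand), the inducible secreted inhibitor, stood at 604, 545.0 and 509 CPM in DMSO and at 626, 647 and 507 CPM with erastin. All 3 overlapped between the groups, and their log2 differences had 95% intervals of -0.04 to 0.22 for Timp3, -0.21 to 0.07 for Timp2 and -0.10 to 0.30 for Timp1. These intervals leave room for differences of that size. Timp4 was at most 0.882 CPM (log2 1.73, 95% interval -0.13 to 3.59). Timp3 alone took 41.0% ± 1.55 of the reads of the 83 genes in DMSO and 45.6% ± 0.543 with erastin (SD, n = 3 each). Its exons overlap Syn3 on the opposite strand, a gene with 47 reads in all.

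To set levels of different genes side by side, CPM were divided by exon length in kilobases (RPKM). Timp1, Timp3 and Timp2 led, at mean levels of 622 ± 54.1, 499 ± 20.6 and 385 ± 14.3 RPKM in DMSO (SD, n = 3 each), followed by Mmp2 at 176 ± 6.17 and Mmp14 at 86.9 ± 12.0. The order of these 5 was the same with erastin, at 668 ± 84.7, 530.3 ± 13.7, 367 ± 20.9, 107 ± 1.75 and 62.8 ± 3.77 RPKM, except that Adam9 stood above Mmp14 there. Adam9 followed Mmp14 at 70.0 ± 5.29 RPKM in DMSO and reached 94.8 ± 2.62 with erastin. Among 14000 genes ranked by RPKM, Timp1 moved from rank 47 to 37 and Mmp2 from 205 to 304. Summed over its family, the Mmp level was 324.7, 345.2 and 372 RPKM in DMSO and 217, 223 and 235.5 RPKM with erastin, while the Timp level was 1579, 1506 and 1433 against 1634, 1610 and 1451 RPKM. The ratio of the Timp to the Mmp sum was 4.86, 4.36 and 3.86 in DMSO and 7.52, 7.23 and 6.16 with erastin, without overlap. Mmp2 and Mmp14 made up 75.8% ± 0.373 of the Mmp sum in DMSO and 75.4% ± 1.01 with erastin (SD, n = 3 each), so the lower sum was mainly theirs. The ratio is of transcripts and says nothing of protein or activity.

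**Figure D3:**
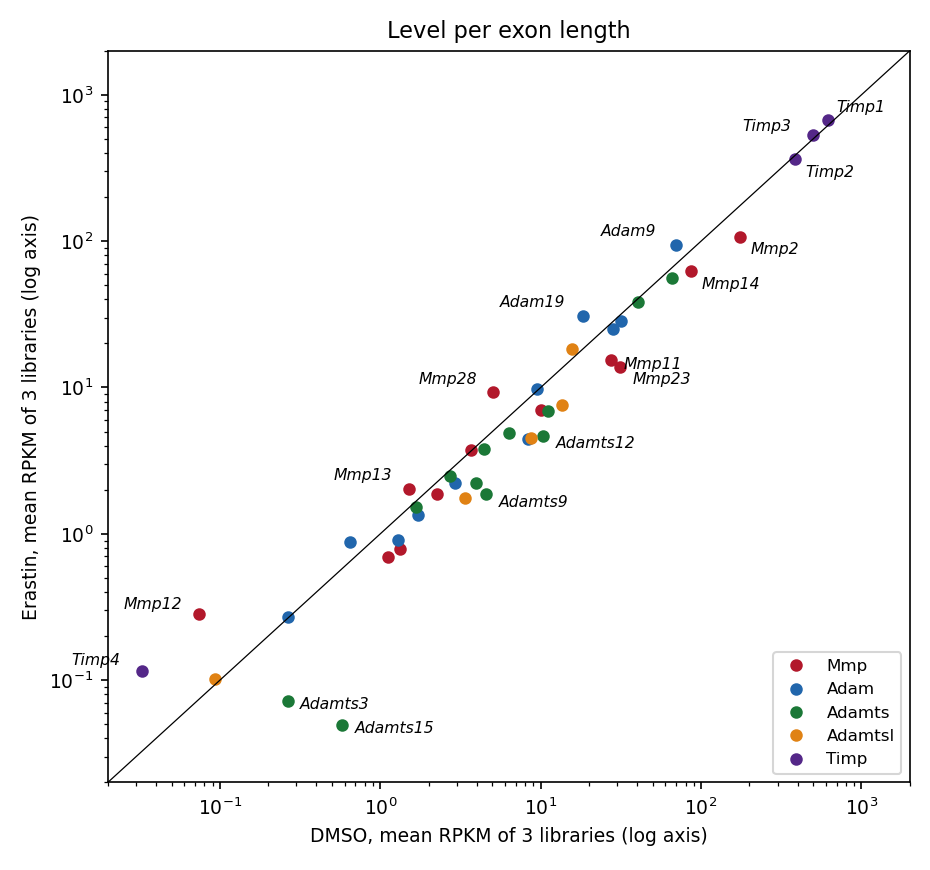
Mean RPKM of each tested gene in DMSO (x axis) and with erastin (y axis), both on log axes, with the line of equal levels. Timp1, Timp2 and Timp3 lie at the top near the line, Mmp2 lies under it at 176 against 107 RPKM, and Adam9 lies above it at 70.0 against 94.8 RPKM.

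Of the 39 genes with too few reads for the test, 10 had no read in any library, which allows up to 0.14 to 0.234 CPM per library (3 counts). The ADAMs best known from testis and sperm accounted for 21 of the 39, and 8 of them had no read. Others had reads, such as Adam21, with 0 in each DMSO library and 7, 0 and 5 with erastin. It did not pass without the filter on low counts (edgeR adjusted p = 0.102). Adam32 had 0 reads in each DMSO library and 6, 15 and 26 in the erastin libraries. Its mean of 0.842 CPM with erastin was 4.03 times the mean floor of 3 counts per DMSO library, which limits the DMSO side only. Erastin replicate 1, at 0.279 CPM, lay close to the DMSO floors of 0.166 to 0.234 CPM. Adam32 passed when the filter on low counts was dropped (edgeR adjusted p = 0.000299). Adam32 (chr8:24836140-24948804, minus strand) starts 806 bases beyond the end of Adam9, on the same strand, and Adam9 rose as well. The part of the neighbour in the Adam32 reads was not tested. Reads of the 3 other ADAMs of that stretch, Adam5, Adam3 and Adam18, were 48, 15 and 3 in all.

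Mmp9, the other gelatinase, had 2, 5 and 9 reads in DMSO and 0, 3 and 4 with erastin, too few to compare. Mmp25, a membrane-anchored MMP of neutrophils, had 4, 1 and 3 reads in DMSO and 8, 12 and 17 with erastin, and did not pass without the filter (edgeR adjusted p = 0.297). Mmp10, a stromelysin, had 0, 3 and 0 reads in DMSO and 19, 9 and 0 with erastin, so its reads came from 2 of 3 erastin libraries (edgeR adjusted p = 0.138 without the filter).

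A stretch at chr9:7272514-7699585 holds 9 of the Mmp genes counted, in the order Mmp13, Mmp12, Mmp1b, Mmp3, Mmp10, Mmp8, Mmp27, Mmp20 and Mmp7. This stretch holds the collagenases and stromelysins that inflammatory signals induce in fibroblasts, classically through AP-1, a dimer of Jun and Fos proteins. Of the 9 genes, 3 had enough reads to be tested and 1, Mmp12, was called, with the reservations given above. In the RefSeq promoter table (GRCm38.p6), which covers 250 bases before and 50 after each start, 52 of the 83 genes had an entry. The AP-1 word TGAGTCA, on either strand, was found in 9 of the 52 (17.3%) and in 5.95% of 27025 genes with a promoter. It was present in 6 of the 9 counted genes of the chromosome 9 stretch (Mmp13, Mmp12, Mmp1b, Mmp3, Mmp10 and Mmp7). Among the 43 others it was in 3, Adam19, Adam1b and Adam29. The word TATAAA was found in 26.9% of the 52 and 15.7% of all genes, and the antioxidant element TGACNNNGC, the word bound by NRF2, in 17.3% and 14.0%. In Adam1b the AP-1 and antioxidant words overlap. A match is a description of the letters and not of a factor bound there.

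The 140 bases before the start are shown for the members with the AP-1 word whose reads are described above, since they are the promoters with this word whose genes had reads to describe. Capitals mark TGAGTCA or its reverse complement TGACTCA, and TATAAA. For Mmp12 and Adam19, which have several starts in the table, the start whose promoter holds the word is shown. The promoter of Mmp12 at the annotated start of the gene (chr9:7344257-7344396) lacks the word, and the start shown lies inside the gene. The other starts of Adam19 and Mmp7 in the table also lack it.
Mmp13, chr9:7272374-7272513 (+): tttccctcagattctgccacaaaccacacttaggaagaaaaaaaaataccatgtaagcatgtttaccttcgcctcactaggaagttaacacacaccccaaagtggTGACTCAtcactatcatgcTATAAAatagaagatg
Mmp12, chr9:7347234-7347373 (+): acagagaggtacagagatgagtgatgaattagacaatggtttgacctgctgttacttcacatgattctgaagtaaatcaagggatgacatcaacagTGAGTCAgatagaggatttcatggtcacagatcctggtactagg
Mmp3, chr9:7445682-7445821 (+): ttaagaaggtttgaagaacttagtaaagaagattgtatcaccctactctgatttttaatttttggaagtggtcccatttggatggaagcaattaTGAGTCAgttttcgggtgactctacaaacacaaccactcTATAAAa
Mmp10, chr9:7502202-7502341 (+): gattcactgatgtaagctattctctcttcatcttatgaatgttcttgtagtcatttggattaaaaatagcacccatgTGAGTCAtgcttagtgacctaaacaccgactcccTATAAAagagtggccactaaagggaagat
Adam19, chr11:46055844-46055983 (+): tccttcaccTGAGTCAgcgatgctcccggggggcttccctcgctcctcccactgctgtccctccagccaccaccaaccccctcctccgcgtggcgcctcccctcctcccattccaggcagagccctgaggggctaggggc
In Mmp13 and Mmp3 the words lie in the last stretch before the start, with the AP-1 word upstream of TATAAA, and Mmp10 has the same order. Adam19, which rose, carries it farther from the start and has no TATAAA in these bases.

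Transcripts of the factors that textbooks place at MMP promoters were mostly higher. The 18 such genes, all tested, were of the AP-1, ETS, RUNX and other families, the last including Cebpb, Rela and Nfkb1. With erastin 13 of the 18 were higher and 1 lower (edgeR, background 21.6% and 21.5%), with a median log2 change of 0.57. This list, like those of regulators and substrates below, was drawn up with earlier results of these data known. Its counts beside the background are therefore a description only. Fosl1, the AP-1 partner Fra-1, stood at 10.8, 7.82 and 10.4 CPM in DMSO and at 93.1, 87.1 and 61.7 CPM with erastin (log2 3.07, SE 0.163). Jun stood at 91.6, 89.1 and 105.9 CPM in DMSO and at 351.5, 351 and 254.5 CPM with erastin (log2 1.74, SE 0.114). Atf3, a stress-induced factor of the same bZIP class, stood at 7.56, 4.93 and 1.71 CPM in DMSO and at 124, 122 and 98.9 CPM with erastin (log2 4.59, SE 0.267). In each of these genes erastin replicate 3 was the lowest of its group and still above every DMSO library. The ETS factors Ets1 and Etv5 had log2 changes of 0.93 and 0.92. The edgeR adjusted p of these 5 genes lay between 3.96e-09 and 3.71e-05. Beside them, Mmp13 and Mmp3, whose printed bases hold the AP-1 word and TATAAA, had log2 differences of 0.42 and 0.01, and neither passed. Adam19 and Mmp12, the other tested members with the AP-1 word at a start shown, were called higher. Their log2 changes were 0.76 and 1.87, for Mmp12 with the reservations given above. The part of these factors in any of those values was not tested.

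A list of regulators, most of which activate, inhibit or carry the metalloproteinases, changed in both directions. It also holds genes such as Pcolce and Cst3, described below, that act on other proteases. Of its 30 genes, 25 were tested and 14 called, 4 higher and 10 lower (edgeR, background 43.1% called). The median log2 change was -0.27. The plasminogen activator system, which starts MMP activation outside the cell, was split. Plaur, the receptor of urokinase, stood at 58.6, 50.9 and 39.5 CPM in DMSO and at 219, 255 and 138 CPM with erastin (log2 2.04, SE 0.18, edgeR adjusted p = 5.74e-07). Plau, urokinase itself, fell from 105.0, 94.5 and 95.0 CPM to 68.9, 63.3 and 64.2 CPM (log2 -0.58, SE 0.0858). Plat, the other activator of the list, was lower too (log2 -0.44, edgeR adjusted p = 0.0101). Plg, the gene of plasminogen, had too few reads to be tested, at 0, 3 and 3 in DMSO and 0 in each erastin library. Serpinb2, which inhibits urokinase, rose by a log2 change of 3.51 from under 1 CPM in each DMSO library. Plaur and Serpinb2 were higher and Plau lower, each without overlap.

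**Figure D4:**
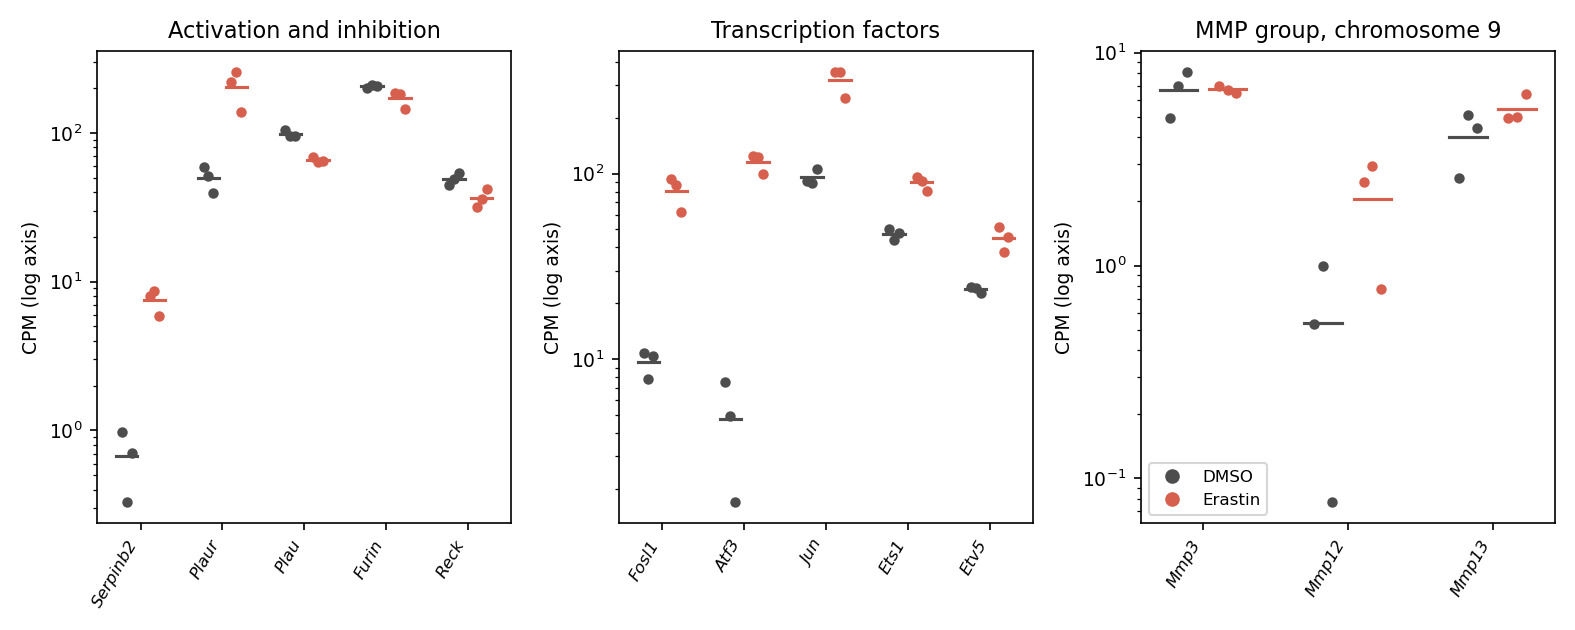
CPM (log axis) in each of the 6 libraries for genes of activation and inhibition (left), transcription factors (middle) and the tested Mmp genes of the chromosome 9 stretch (right), with group means as lines. Serpinb2, Plaur, Fosl1, Jun and Atf3 are higher in all 3 erastin libraries and Plau is lower in all 3, while Mmp3, Mmp12 and Mmp13 overlap between the groups.

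Pcolce, the enhancer of procollagen C-proteinase, stood at 617, 717 and 745 CPM in DMSO and at 352, 360.5 and 343 CPM with erastin (log2 -0.98, SE 0.0769, edgeR adjusted p = 1.62e-07). Cst3, cystatin C, an inhibitor of cysteine proteases, was lower too (log2 -0.85). Reck, a membrane-anchored MMP inhibitor, stood at 44.9, 48.8 and 53.8 CPM in DMSO and at 31.8, 35.8 and 41.9 CPM with erastin (log2 -0.43, edgeR adjusted p = 0.00873), a call lost without erastin replicate 1 (0.0616). Furin, the convertase that activates membrane-type MMPs and ADAMs, had a log2 change of -0.27 (edgeR adjusted p = 0.0301), lost without DMSO replicate 2 (0.0976) or erastin replicate 3 (0.13, log2 -0.16) and with library totals alone (0.0995). Of 4 tested tetraspanins that guide ADAM10, Tspan15 was higher (log2 1.99) and Tspan17 lower (-1.15), while Tspan5 (-0.06), the most counted of them, and Tspan14 (-0.12) did not pass. The iRhom genes Rhbdf1 (log2 -0.29) and Rhbdf2 (0.08), which carry ADAM17 to the surface, did not pass, though Rhbdf1 did with upper-quartile factors (0.0449).

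Of 38 genes for matrix and surface proteins that members cut, 36 were tested and 21 called, 7 higher and 14 lower (edgeR, background 43.1% called), with a median log2 change of -0.18. The adhesion molecule Cdh11 stood at 670.0, 744 and 732 CPM in DMSO and at 311, 290.0 and 358.5 CPM with erastin (log2 -1.16, SE 0.0824). Ptk7, a pseudokinase receptor cut by Mmp14, and Sdc1, a shed proteoglycan, were lower as well (log2 -1.04 and -1.08). Cd44, the hyaluronan receptor that Mmp14 and Adam10 shed, stood at 592, 568.5 and 492 CPM in DMSO and at 1476, 1419 and 1108 CPM with erastin (log2 1.28, SE 0.100), and Prnp was higher too (log2 0.82). None of these 5 genes had overlapping groups, and their edgeR adjusted p lay between 6.35e-08 and 1.77e-07. Col1a1, Col1a2, Col3a1, Fbn1, Lum and Dcn stand both in this list and among the fibroblast markers.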

How the data were processed

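Read counts per gene were deposited by the authors as whole numbers for 43346 genes in 6 libraries. Per the labels' protocols, total RNA was depleted of ribosomal RNA, fragmented, made into Ion Total RNA-seq libraries and sequenced on an Ion Proton. The submitters' processing notes list HTSeq 0.9.1, SAMtools and the build mm10. The aligner, the annotation counted and the strand setting are not given in the sources used here. Of the versioned Ensembl identifiers, 42462 had a symbol in GENCODE M21, which also gave coordinates (GRCm38) and exon lengths. No column of per-sample values was left unused (0).

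Counts were analysed with edgeR 4.0.16 in R 4.3.3. Genes passed filterByExpr at its defaults (minimum count 10 in at least 3 libraries, minimum total 15), TMM factors were used, and the quasi-likelihood test was run for treatment, without covariates, over the 6 libraries. P-values were adjusted by Benjamini-Hochberg over 14000 genes, with a threshold of 0.05. SEs and 95% intervals come from the fitted weights and posterior quasi-dispersion, and the biological coefficient of variation was 15.1%. RPKM use TMM library sizes. Floors of 3 counts cover counting error only, since the libraries were amplified and no molecular identifiers are described.

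The members and lists were chosen with earlier results of these data known. The naming rule gave every member called with all libraries, other members by value or count, and of each list the genes with the smallest adjusted p (8 regulators, 5 of each other list) with Reck, Plau, Plaur, Furin, Rhbdf1 and Rhbdf2. A regulator chosen by this rule is not reported here. Untested members named by reads were chosen after their values were seen. So were the marker, tetraspanin, plasminogen system and substrate genes named outside the rule. Promoter sequences are RefSeq's. Protein sequences were not analysed here. Alternatives were RLE and upper-quartile factors, library totals alone, no filter, at least 1 CPM in 3 libraries, a replicate block, DESeq2 1.42.0, an adjusted p under 0.01, and leaving out each library.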

Additional observations from a re-analysis of the deposited data

How the results depend on the processing

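Over 13 alternatives fitted at the same threshold, 17 of the 21 called genes kept their direction and side of the threshold in all, and Adam23, Adamts3, Adamts4 and Mmp12 did not. Between 17 and 24 of the 83 genes were called, with 17 also at an adjusted p under 0.01. The median log2 change of all genes was -0.06 with upper-quartile factors and 0.06 with library totals alone, against -0.0014. Signs turned for genes near 0: with upper-quartile factors Adam11 was -0.0201, Adam17 -0.00344 and Mmp3 -0.0406. Leaving out each library in turn gave ranges of -0.253 to 0.523 for Adam11, -0.0561 to 0.124 for Adam17, -0.274 to 0.0355 for Adamts5, -0.266 to 0.121 for Adamts7, -0.297 to 1.38 for Adamtsl2, -0.163 to 0.166 for Mmp3 and -0.0522 to 0.191 for Rhbdf2. The causes were not tested. The labels do not say whether equal replicate numbers share a culture or day. Deviations of same-numbered libraries correlated at 0.04, 0.0038 and -0.0055, and those of other pairs across groups at -0.0446 to 0.0348. With 3 libraries per group such values cannot show whether the libraries were paired. A replicate block called 22 of the 83 genes and 5882 of all genes, and Adamts1 passed with it (-0.23, edgeR adjusted p = 0.029). Genes under about 1 CPM rest on few reads, and the depth limits what can be said of them.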
